A study of Mus musculus with 24 samples.

Results

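Rbbp9, Vps16, Jmjd7, Pla2g4d and Dtd1 are 5 genes of mouse chromosome 2, the chromosome that also carries Hdc. Among 20659 genes with a symbol, 1480 on chromosome 2 had a probe that was tested. These 5 were chosen among genes of chromosome 2 alone because their levels in HDC-KO differed from those in WT and STAT6-KO. The HDC-KO differences of these genes are therefore described below without a test. The arrays carried 6 probes for them, 2 for Rbbp9 and 1 for each of the others, and all 6 were among the 33617 of 39429 probes that passed the filter on dim signals. RNA was measured in CD11b+ cells of spleen and bone marrow (BM) of male WT, HDC-KO and STAT6-KO mice. Cells came from control mice or from mice at 1, 2 and 4 weeks after myocardial infarction (MI). The mice were 10 weeks old when bought and had a Balb/C background, according to the methods of the study. HDC-KO mice lack histidine decarboxylase, which makes histamine, and STAT6-KO mice lack the transcription factor STAT6. For every genotype, tissue and time point there was a single array, made from the cells of 5 pooled mice, and 22 of 24 arrays were complete. HDC-KO spleen control and STAT6-KO BM MI 1 week were the incomplete ones and were not used. The comparisons therefore rest on 7 HDC-KO, 8 WT and 7 STAT6-KO arrays, with 11 arrays from each tissue.

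CD11b, encoded by Itgam, is an integrin chain of monocytes, macrophages and neutrophils, and histamine is made by some of these immature myeloid cells. The 5 genes belong to different processes. Vps16 is a core subunit of the HOPS and CORVET tethering complexes, which bring endosomes and lysosomes together for fusion. Pla2g4d is a cytosolic phospholipase A2 of group IV, a family that releases fatty acids from membrane phospholipids. Jmjd7 is a JmjC-domain oxygenase that hydroxylates the GTP-binding proteins Drg1 and Drg2. Rbbp9 is a serine hydrolase first described as a binding partner of retinoblastoma proteins, and Dtd1 removes D-amino acids from wrongly charged tRNA. They share the chromosome because the choice was limited to it. Counted between gene starts in the RefSeq table of GRCm38.p6, Jmjd7 and Pla2g4d lie 6.57 and 6.33 Mb on one side of Hdc. Vps16 lies 3.83 Mb on the other side, followed by Rbbp9 at 17.95 Mb and Dtd1 at 18.01 Mb. Genes close to a targeted allele are inherited with it, and a stretch of chromosome around such an allele can remain from the strain in which it was made.

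The promoters of Rbbp9, Dtd1 and Vps16 are shown because Rbbp9 and Dtd1 are the closest pair that was lower in HDC-KO, whereas Vps16 was the gene with the largest difference upwards over both tissues together. Each holds 250 bases before and 50 after the start of the gene, from RefSeq on GRCm38.p6. All 5 genes had an entry. The 3 regions are chr2:144550810-144551109 (minus strand) for Rbbp9, chr2:144599703-144600002 (plus strand) for Dtd1, and chr2:130424070-130424369 (plus strand) for Vps16, each printed 5′ to 3′. Capitals mark matches, on either strand, to the core of the TATA box (TATAAA), to the GC box (GGGCGG), to the CCAAT box, or to the core of sites for PU.1, a factor of myeloid cells (GAGGAA).
Rbbp9: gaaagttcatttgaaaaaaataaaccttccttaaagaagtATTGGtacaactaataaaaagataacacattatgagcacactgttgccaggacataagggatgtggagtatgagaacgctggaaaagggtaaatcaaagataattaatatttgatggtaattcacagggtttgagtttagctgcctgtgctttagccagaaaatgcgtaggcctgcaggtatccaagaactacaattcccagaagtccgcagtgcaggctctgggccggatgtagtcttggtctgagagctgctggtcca
Dtd1: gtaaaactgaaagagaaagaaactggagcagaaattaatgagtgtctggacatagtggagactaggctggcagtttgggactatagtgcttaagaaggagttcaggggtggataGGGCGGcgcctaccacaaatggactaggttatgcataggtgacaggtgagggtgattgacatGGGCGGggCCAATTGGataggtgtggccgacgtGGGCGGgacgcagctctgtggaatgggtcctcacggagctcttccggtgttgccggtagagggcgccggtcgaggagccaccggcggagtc
Vps16: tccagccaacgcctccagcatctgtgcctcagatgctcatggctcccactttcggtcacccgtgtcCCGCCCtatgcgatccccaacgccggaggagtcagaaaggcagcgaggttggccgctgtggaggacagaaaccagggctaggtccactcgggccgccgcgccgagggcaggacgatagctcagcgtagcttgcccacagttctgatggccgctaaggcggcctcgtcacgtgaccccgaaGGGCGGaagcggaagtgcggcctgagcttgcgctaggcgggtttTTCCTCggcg

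The 3 promoters have little in common in these letters. That of Rbbp9 held 4 CpG dinucleotides, a GC content of 41.7% and 1 CCAAT match, those of Dtd1 15 CpG, 56.0% GC, 3 GC boxes and 2 overlapping CCAAT matches, and that of Vps16 28 CpG, 65.3% GC, 2 GC boxes and 1 PU.1 core. Over 32851 promoters of the same length, the medians were 7 CpG and 52.7% GC, and 35.7% held a GC box, 37.4% a CCAAT box, 28.3% a PU.1 core and 13.6% a TATA box core. None of the 3 held a TATA box core. A match of letters is a description of the window and says nothing about binding.

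The labels were first checked against the data. On a log2 scale relative to the 75th percentile of each array, which is the unit of every level below, the level of Hdc was 1.67 to 2.78 over the 7 HDC-KO arrays and 4.12 to 5.51 over the other 15. Its difference was -2.69 (standard error 0.14, limma adjusted p = 1.94e-08). The Hdc probe stayed well above background on all 7 HDC-KO arrays. The 75th percentile of the raw signal ranged from 928 to 2461 over the 22 arrays, and 70.4 to 79.8% of the spots were well above background. Itgam, on its probe with the highest mean, was between 3.52 and 5.85 on all arrays, and the mean of the 4 CD11b+ cell markers (Itgam, Itgb2, Csf3r and Csf1r) was 4.23 to 5.58. One array, that of STAT6-KO spleen at 4 weeks after MI, went against its label on 2 of 3 Stat6 probes. On A_52_P132761 it was at 0.73 against -1.11 to -0.29 for the other 6 STAT6-KO arrays and 0.05 to 1.29 for WT, and on A_65_P00601 at 0.20 against -1.72 to -0.27 and -0.43 to 1.99. On A_52_P114494 it was at 2.12, within the 1.76 to 2.44 of the others. Without this array Pla2g4d was no longer past the threshold in HDC-KO against WT and STAT6-KO, and no other call on the 5 genes changed. Both Xist probes were higher on all HDC-KO arrays, at -1.81 to -0.74 against -9.36 to -2.06 on A_52_P113537 (a difference of 6.85, with 2 of the other 15 arrays well above background) and at -3.31 to -2.05 against -7.31 to -3.51 on A_52_P300376 (3.19). The 2 other arrays well above background on A_52_P113537 were both of STAT6-KO. The mean of 4 Y-linked genes was -4.09 to -2.85 in HDC-KO and -2.71 to -1.59 elsewhere. Of these genes, Ddx3y and Eif2s3y were well above background on all 7 HDC-KO arrays and Kdm5d on 1. Of the 2 Uty probes, 1 was on all 7 and the other on 5. The methods of the study describe the mice as male, and the Xist signal of the HDC-KO arrays goes against that. Since it was on all 7, no HDC-KO value could be given without it, and its part in the HDC-KO comparisons was not tested. Each slide carried the 4 time points of 1 genotype in 1 tissue. Genotype within a tissue cannot be told apart from slide, nor time from the position on the slide.

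**Figure D1:**
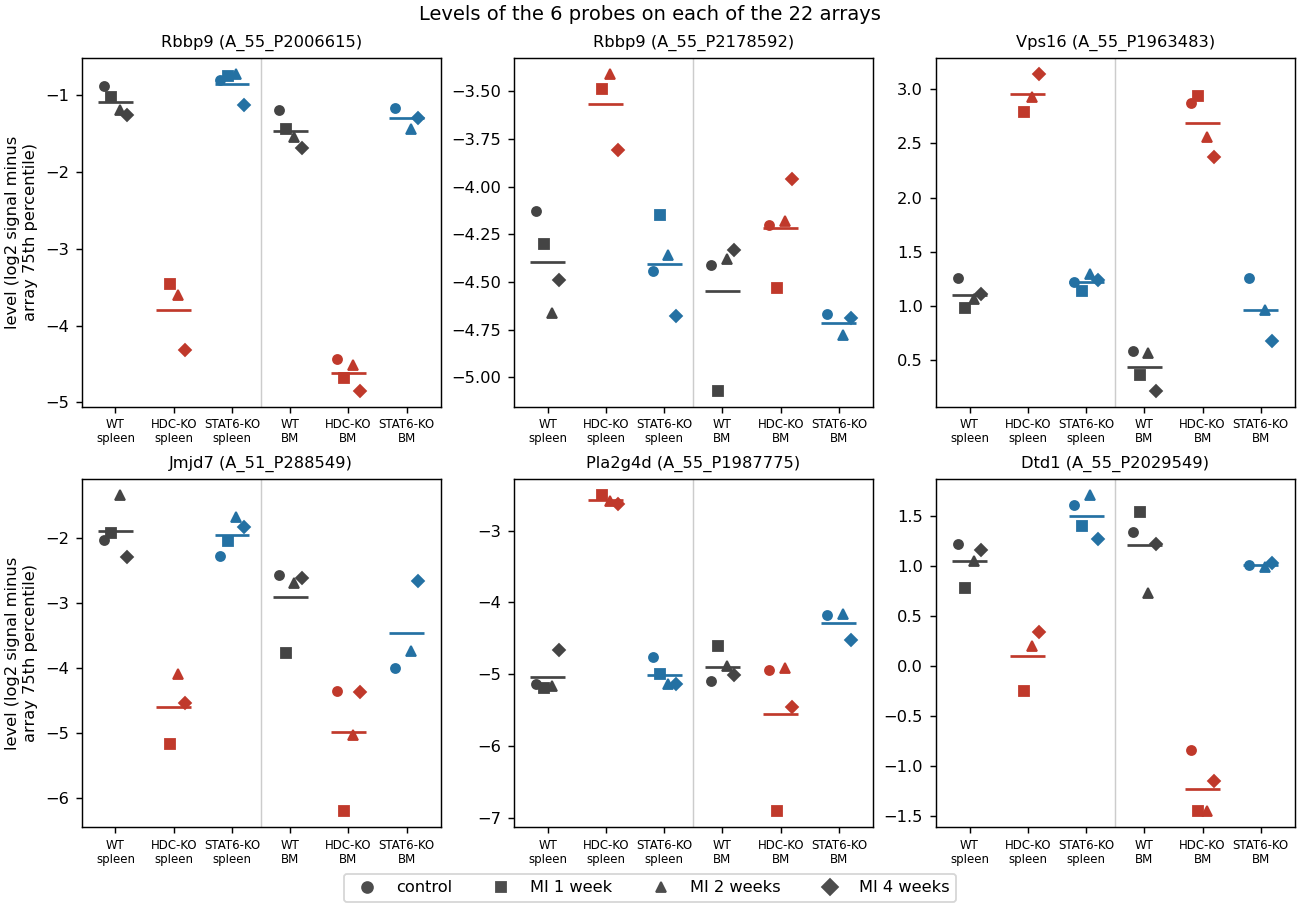
Level of each of the 6 probes (log2 signal minus the 75th percentile of the array) on the 22 arrays, grouped by genotype and tissue, with marker shape for the time point and a line at the mean of each set of 3 or 4 arrays; the vertical scale differs between panels. Rbbp9 (first probe), Jmjd7 and Dtd1 sit lower and Vps16 higher in HDC-KO in both tissues, whereas Pla2g4d stands apart in HDC-KO spleen, between -2.63 and -2.50.

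Rbbp9, the serine hydrolase, showed the largest HDC-KO difference among the 6 probes, on probe A_55_P2006615. Its level was -3.46, -3.60 and -4.32 in HDC-KO spleen at 1, 2 and 4 weeks after MI, and -4.44, -4.68, -4.51 and -4.85 in HDC-KO BM in control mice and at 1, 2 and 4 weeks. In WT and STAT6-KO it ranged from -1.25 to -0.72 in spleen (median -0.95, 8 arrays) and from -1.69 to -1.16 in BM (median -1.44, 7 arrays). The HDC-KO arrays thus lay below all the others in both tissues, and the highest of them was -3.46 against a lowest of -1.69 elsewhere. At the same tissue and time point, HDC-KO was lower than WT by a mean difference of -2.64 ± 0.38 in spleen (SD, n = 3 pairs of arrays) and -3.15 ± 0.13 in BM (SD, n = 4). Against STAT6-KO, with the same HDC-KO arrays, the differences were -2.92 ± 0.24 and -3.30 ± 0.24 (SD, n = 3 each). The signal in HDC-KO was 16.1% of WT in spleen and 11.2% in BM.

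The other Rbbp9 probe, A_55_P2178592, went the opposite way. Its level was -3.49, -3.41 and -3.81 in HDC-KO spleen, and -4.20, -4.53, -4.18 and -3.96 in HDC-KO BM, in the same order of time points. In WT and STAT6-KO it ranged from -4.68 to -4.13 in spleen (median -4.40) and from -5.07 to -4.33 in BM (median -4.67). HDC-KO lay above the others in spleen and overlapped with them in BM. The mean difference from WT was 0.92 ± 0.30 in spleen (SD, n = 3) and 0.33 ± 0.16 in BM (SD, n = 4). Over both tissues the difference was 0.65 (standard error 0.13), and background correction by normexp brought it to 0.18. The direction of Rbbp9 in HDC-KO therefore depends on the probe, and probe sequences were not used here.

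Dtd1, the D-aminoacyl-tRNA deacylase close to Rbbp9 on the chromosome with Sec23b and Smim26 between them, was also lower in HDC-KO. Its level was -0.25, 0.20 and 0.34 in HDC-KO spleen, and -0.84, -1.45, -1.45 and -1.15 in HDC-KO BM. In WT and STAT6-KO it ranged from 0.78 to 1.71 in spleen (median 1.25) and from 0.73 to 1.54 in BM (median 1.03). The HDC-KO arrays were below all the others, with the BM arrays lowest. The mean difference from WT was -0.90 ± 0.11 in spleen (SD, n = 3) and -2.43 ± 0.39 in BM (SD, n = 4), which leaves 53.6% and 18.5% of the WT signal. From STAT6-KO it was -1.37 ± 0.38 and -2.16 ± 0.30 (SD, n = 3 each).

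Jmjd7, the JmjC oxygenase, was the third gene that was lower in HDC-KO. Its level was -5.17, -4.09 and -4.53 in HDC-KO spleen and -4.35, -6.20, -5.03 and -4.36 in HDC-KO BM. In WT and STAT6-KO it was -2.29 to -1.33 in spleen (median -1.97) and -3.99 to -2.56 in BM (median -2.69). No array of HDC-KO reached the range of the others, but in BM the gap was small, from -4.35 to -3.99. The difference from WT was -2.75 ± 0.51 in spleen (SD, n = 3) and -2.08 ± 0.36 in BM (SD, n = 4). From STAT6-KO it was -2.74 ± 0.35 in spleen and -1.12 ± 0.69 in BM (SD, n = 3 each), and the smallest of these was -0.36 in control BM. Jmjd7 lies directly beside Pla2g4b, with which it can form a read-through transcript. The Pla2g4b probe differed by -0.24 (standard error 0.12, limma adjusted p = 0.284).

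Vps16, the tethering subunit, was higher in HDC-KO on every array. Its level was 2.79, 2.93 and 3.14 in HDC-KO spleen and 2.87, 2.94, 2.56 and 2.37 in HDC-KO BM. In WT and STAT6-KO it was 0.98 to 1.30 in spleen (median 1.18) and 0.22 to 1.26 in BM (median 0.59). The lowest HDC-KO value, 2.37, was thus well above the highest of the others, 1.30. The difference from WT was 1.90 ± 0.12 in spleen (3.73-fold; SD, n = 3) and 2.25 ± 0.24 in BM (4.75-fold; SD, n = 4). From STAT6-KO it was 1.73 ± 0.15 and 1.64 ± 0.05 (SD, n = 3 each). Vps16 also varied least between settings, with fitted HDC-KO differences of 1.87 to 1.98 over 14 alternatives.

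Pla2g4d, the group IV phospholipase, was higher in HDC-KO in spleen but not in BM. Its level was -2.50, -2.59 and -2.63 in HDC-KO spleen, against -5.19 to -4.66 in WT and STAT6-KO spleen (median -5.13). In HDC-KO BM it was -4.94, -6.91, -4.91 and -5.46, against -5.10 to -4.16 in the other BM arrays (median -4.61). The 3 HDC-KO spleen arrays differed from each other by little and lay far above every other array, whereas those of BM overlapped with the others at the low end. The array at -6.91, HDC-KO BM MI 1 week, was the only one of 22 on which the probe was not well above background. The difference from WT was 2.43 ± 0.35 in spleen (5.40-fold; SD, n = 3) and -0.66 ± 1.13 in BM (SD, n = 4). From STAT6-KO it was 2.52 ± 0.03 and -0.82 ± 0.10 (SD, n = 3 each).

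Over both tissues, 4 of the 6 probes had all HDC-KO arrays above or all below the other 15. Of all probes tested, 0.113% (38) did. The HDC-KO contrast chose these genes, and nothing is read from that count. All 6 probes likewise passed an adjusted p under 0.05 in the fit of HDC-KO against WT and STAT6-KO, which 4.14% of all probes did. With slide as a random block, 4 of 6 probes passed, against 0.449% of all probes, and Pla2g4d and the second Rbbp9 probe did not. Pla2g4d was not past the threshold in 6 of 13 alternatives and the second Rbbp9 probe in 4 of 13, whereas the other 4 probes passed in all 14.

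**Figure D2:**
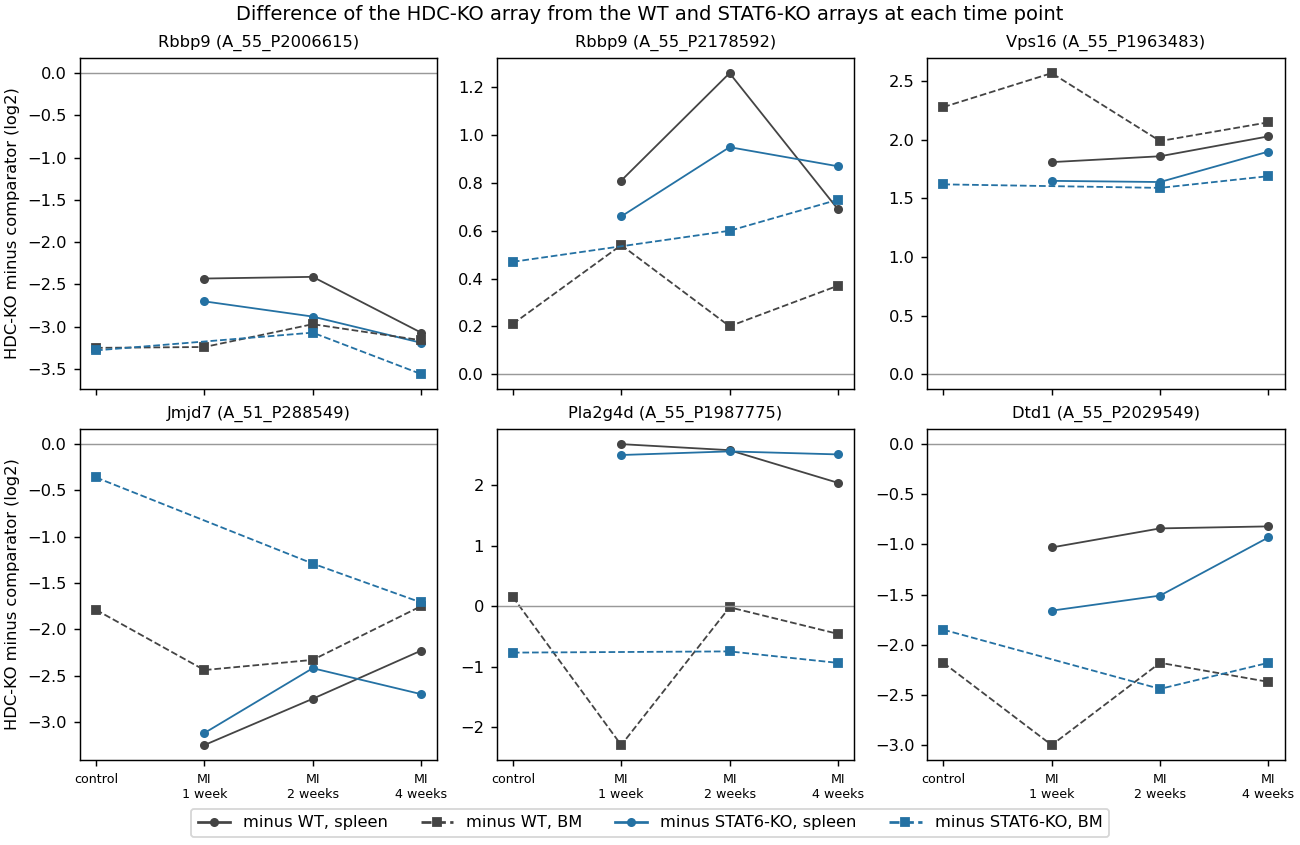
HDC-KO minus WT (grey) and HDC-KO minus STAT6-KO (blue) on the log2 scale for each probe, in spleen (solid) and BM (dashed), at each time point with both arrays; there is no replicate and so no error bar, and the vertical scale differs between panels. The sign is the same at all time points for 5 of the probes, and Pla2g4d lies above 2 in spleen and between -2.30 and 0.15 in BM.

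The order of the levels over the 6 sets of arrays (3 genotypes in 2 tissues) differed between the genes. For Vps16 it ran from HDC-KO spleen (2.95 ± 0.18, SD, n = 3) and HDC-KO BM (2.69 ± 0.27, SD, n = 4), which overlapped, to STAT6-KO spleen, WT spleen and STAT6-KO BM, which also overlapped in turn, and to WT BM (0.44 ± 0.18, SD, n = 4), which lay below STAT6-KO BM. For the first Rbbp9 probe, the 4 sets of WT and STAT6-KO overlapped in turn. They were followed by HDC-KO spleen (-3.79 ± 0.46, SD, n = 3) and HDC-KO BM (-4.62 ± 0.18, SD, n = 4), which did not overlap. Dtd1 had the same last 2 sets, at 0.10 ± 0.31 (SD, n = 3) and -1.22 ± 0.29 (SD, n = 4), again apart from each other. For Jmjd7 the spleen sets of WT and STAT6-KO came first, then their BM sets, then HDC-KO spleen and HDC-KO BM, which overlapped. For Pla2g4d the sets below HDC-KO spleen began with STAT6-KO BM (-4.28 ± 0.21, SD, n = 3), which lay above WT BM (-4.90 ± 0.21, SD, n = 4), and the rest overlapped in turn. On the second Rbbp9 probe, HDC-KO spleen came first, apart from HDC-KO BM (-4.22 ± 0.24, SD, n = 4), and the remaining sets overlapped in turn.

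The tissues were compared first in the 15 arrays of WT and STAT6-KO, without the HDC-KO arrays, whose difference from the others chose the genes. The 15 arrays also took part in that choice, as the set against HDC-KO. In these arrays 3 of 6 probes were higher in spleen (limma, adjusted p under 0.05), as were 20.2% of all probes. The difference was 1.31 for Jmjd7 (standard error 0.24, limma adjusted p = 0.000733), 0.48 for Vps16 (standard error 0.10, limma adjusted p = 0.00257) and 0.40 for the first Rbbp9 probe (standard error 0.10, limma adjusted p = 0.00629). Pla2g4d was lower in spleen, by -0.44 (standard error 0.14, limma adjusted p = 0.0201). Dtd1 was at 0.17 (standard error 0.14, limma adjusted p = 0.334) and the second Rbbp9 probe at 0.24 (standard error 0.15, limma adjusted p = 0.201). The median over all probes was -0.27.

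Over all 22 arrays, with each genotype given equal weight, all 6 probes were higher in spleen, as were 24.6% of all probes. The difference was 1.04 for Jmjd7, 0.75 for Pla2g4d, 0.59 for Dtd1, 0.42 for Vps16, and 0.56 and 0.39 for the Rbbp9 probes, against a median of -0.17 over all probes. The sign for Pla2g4d thus turned with the HDC-KO arrays, and Dtd1 and the second Rbbp9 probe passed the threshold only with them. With slide as a random block, 5 of 6 remained higher in spleen past the threshold over all arrays, as were 7122 of all 33617 probes. Pla2g4d had a limma adjusted p of 0.19 in that setting. By the methods' t-test, 1 of the 6 had an unadjusted p under 0.05, and nothing is read from this count.

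The pairs of arrays of 1 genotype and time point were also set side by side. Within WT, Jmjd7 was higher in spleen in 4 of 4 pairs of arrays (mean 1.01 ± 0.72, SD), as were Vps16 (0.67 ± 0.16) and the first Rbbp9 probe (0.38 ± 0.06). In contrast, Dtd1 differed by -0.15 ± 0.45 in WT, higher in spleen in 1 of 4 pairs, and by 1.45 ± 0.23 in HDC-KO, higher in 3 of 3. Pla2g4d differed by -0.14 ± 0.39 in WT, by -0.73 ± 0.22 in STAT6-KO (lower in spleen in 3 of 3 pairs) and by 3.19 ± 1.08 in HDC-KO (higher in 3 of 3). Markers of other cell types were also measured in both tissues. The mean of the 3 plasma cell markers was 0.78 to 2.50 in the spleen arrays and -0.59 to 1.17 in the BM arrays. For T cells the ranges were -0.13 to 2.20 and -0.56 to 0.40. Both reached higher in spleen and overlapped with BM. For erythroid cells they were -1.90 to 0.97 and -2.91 to 0.45, with no common direction over the genotypes. The part of these cells in the tissue differences was not tested. In sorted bulk cells, a change in the share of a cell type cannot be told apart from a change in RNA per cell.

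The HDC-KO difference was also set in spleen against BM, as an interaction term. It is built from the HDC-KO values that chose the genes, so it is described without a test. The HDC-KO difference of Pla2g4d was more positive in spleen than in BM by 3.43 (standard error 0.40). That of Dtd1 differed by 1.19 (standard error 0.24), the HDC-KO arrays lying further below the others in BM. For Vps16 the term was -0.15 (standard error 0.19), for Jmjd7 -0.95 (standard error 0.44), and for the Rbbp9 probes 0.48 (standard error 0.18) and 0.44 (standard error 0.25). The median over all probes was 0.10. Of the 6 probes 2 passed an adjusted p under 0.05, as did 3.11% of all probes, and nothing is read from that count. The Pla2g4d term lay between 1.78 and 3.61 over 12 alternatives, lowest with normexp, and the Dtd1 term between 0.93 and 1.29 over 13. Slide and the combination of genotype and tissue coincide, so a slide effect and this difference cannot be told apart.

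The comparison of STAT6-KO against WT rests on arrays that also took part in the choice of the genes, as the set against HDC-KO. Here 0 of 6 probes passed an adjusted p under 0.05 in limma, against 5.95% of all probes. With so few probes a count of 0 is near that share, and nothing is read from it. At an unadjusted p under 0.05 it was 1 probe, that of Vps16, against 21.1% of all probes, and 0 by the methods' t-test. Vps16 differed by 0.31 (standard error 0.11, limma adjusted p = 0.0958). With the pair of tissues of 1 genotype and time point as a block its adjusted p was 0.0454. Jmjd7 differed by -0.40 (standard error 0.25), Pla2g4d by 0.28 (standard error 0.23), Dtd1 by 0.10 (standard error 0.14), and the Rbbp9 probes by 0.21 (standard error 0.10) and -0.11 (standard error 0.14).

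MI was likewise without a call on the 5 genes. In MI against control, 0 of 6 probes passed in limma, against 0.696% of all probes, and nothing is read from that count. At an unadjusted p under 0.05 it was 0 in limma, against 15.7% of all probes, and 0 by the methods' t-test. The differences ranged from -0.22 to -0.05, with limma adjusted p from 0.325 to 0.945. The standard errors ran from 0.10 to 0.25, the largest for Jmjd7. The control arrays numbered 5 against 17 after MI, and HDC-KO had a control array from BM alone.

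**Figure D3:**
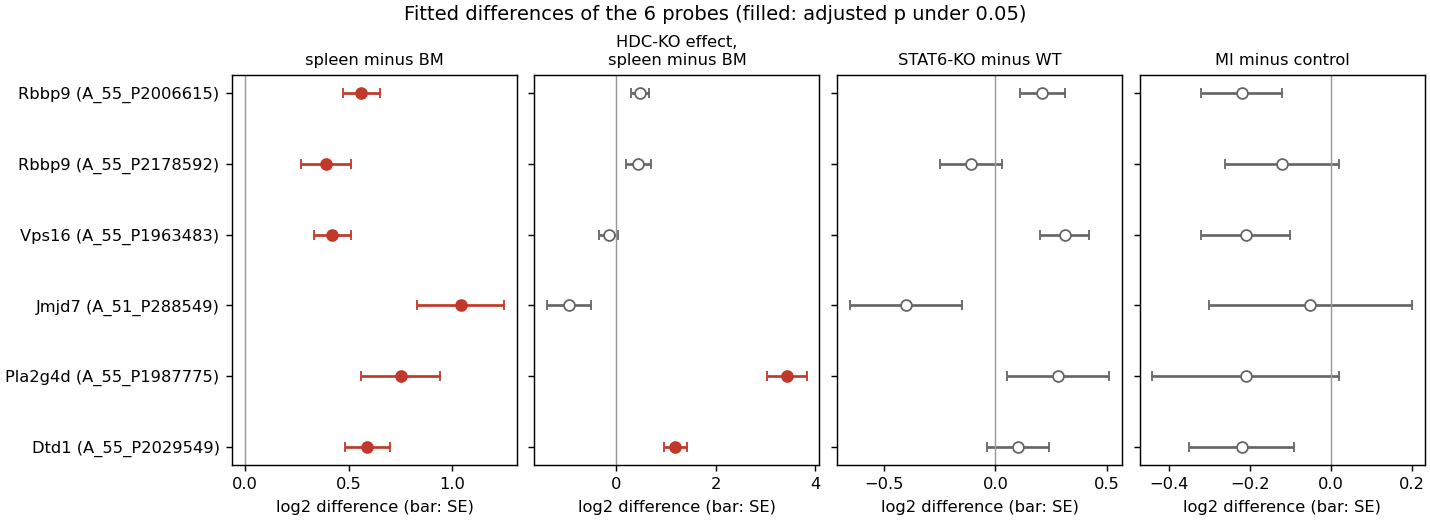
Fitted log2 difference with its standard error for each probe in 4 comparisons over all 22 arrays (filled points have an adjusted p under 0.05); the horizontal scale differs between panels. The HDC-KO arrays, whose difference from the others chose the genes, enter both tissue panels. All 6 probes are higher in spleen over the 3 genotypes, though Pla2g4d is lower there without the HDC-KO arrays (-0.44), and the term for the HDC-KO effect is largest for Pla2g4d (3.43).

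The rest of chromosome 2 was examined by distance from Hdc, leaving out Hdc and the 5 genes. Within 20 Mb of Hdc on either side, 62 of 412 probes (15.0%) passed an adjusted p under 0.05 in HDC-KO against WT and STAT6-KO, 39 of them higher and 23 lower in HDC-KO. On the rest of chromosome 2 it was 58 of 1556 (3.73%), and on the other chromosomes 768 of 21732 (3.53%). The share was 4.76% within 1 Mb (2 of 42 probes), 18.2% from 1 to 5 Mb (22 of 121), 15.5% from 5 to 10 Mb (22 of 142) and 15.0% from 10 to 20 Mb (16 of 107). From 20 to 30 Mb it was 5.20% (14 of 269). The called probes were thus on both sides of Hdc, with 26 of 216 before it and 36 of 196 after it. They were unevenly spread. From 5 Mb before Hdc up to Hdc, 2 of 48 probes (4.17%) were called, and from 20 to 15 Mb before it 0 of 19. In the first 5 Mb after Hdc it was 22 of 115 (19.1%). Among the 20 chromosomes with at least 100 probes, chromosome 2 had the highest share called, again without Hdc and the 5 genes, at 6.10% (120 of 1968), followed by X with 4.95%.

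The same windows in STAT6-KO against WT gave 22 of 412 probes (5.34%) within 20 Mb of Hdc, 5.08% on the rest of chromosome 2 and 5.63% on the other chromosomes. This contrast gives no weight to the HDC-KO groups. It comes from the fit over all 22 arrays, so the HDC-KO arrays still enter its time terms and its estimate of spread. With slide as a random block, 14 of the 412 probes (3.40%) were called in HDC-KO, against 0.257% on the rest of chromosome 2 and 0.368% on the other chromosomes. Over 15 settings the share within 20 Mb was 2.67 to 19.7% and that of all other probes 0.398 to 7.05%, and the former was 2.77 to 8.54 times the latter. Genes along a chromosome are not independent of each other, and these shares are given without a test. The loss of Hdc cannot be told apart here from the stretch of chromosome that is inherited with the targeted allele.

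**Figure D4:**
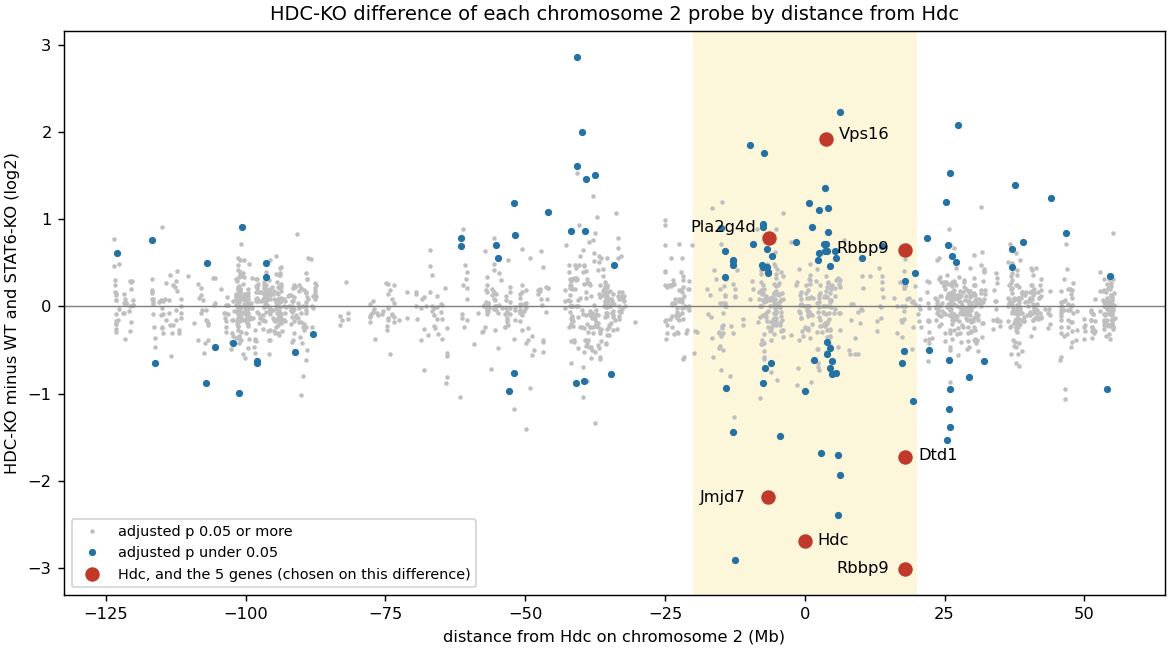
HDC-KO minus WT and STAT6-KO (log2) for the 1975 tested probes of chromosome 2 against the distance of the gene start from the start of Hdc in Mb (GRCm38.p6), with probes past an adjusted p of 0.05 in blue and Hdc and the 5 genes in red. The shaded 20 Mb on either side of Hdc hold 62 called probes besides the red ones, in both directions.

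**Figure D5:**
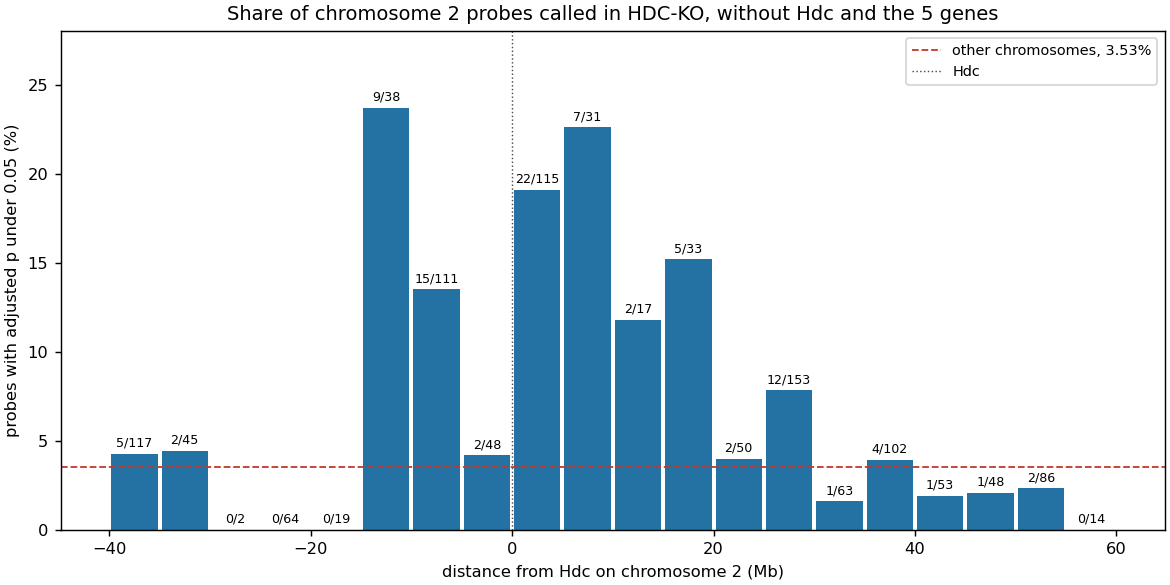
Share of chromosome 2 probes with an adjusted p under 0.05 in HDC-KO in steps of 5 Mb from Hdc, without Hdc and the 5 genes; numbers above the bars are called and tested probes, and the dashed line is the share on the other chromosomes (3.53%). The bars from -15 to -5 Mb and from 0 to 20 Mb reach 11.8 to 23.7%, against 0 to 7.84% in the other steps drawn.

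The 10 chromosome 2 probes with the largest called HDC-KO differences besides these genes belonged to 9 genes. Within 20 Mb of Hdc these were Actc1, AU019990 (both of its probes), Lrrn4, Trmt6, Tmco5 and Chac1. Trmt6, a subunit of a tRNA methyltransferase 6.21 Mb from Hdc, fell by 1.93 (standard error 0.15, limma adjusted p = 2.07e-06). Chac1, which degrades glutathione, 7.24 Mb on the other side, rose by 1.76 (standard error 0.18, limma adjusted p = 4.27e-05). For both, the HDC-KO arrays did not overlap with the other 15. Trmt6 was -6.05 to -4.95 in HDC-KO and -4.24 to -2.67 elsewhere, and Chac1 -0.04 to 1.72 and -2.37 to -0.16. Both also passed with slide as a random block. Lrrn4 rose by 2.23 (limma adjusted p = 0.00128), with its probe well above background on 6 HDC-KO arrays and 4 of the other 15. AU019990 fell by 2.39 on one probe and fell by 1.70 on the other (limma adjusted p = 0.000132 and 0.00136). Actc1, cardiac actin, fell by 2.91 (standard error 0.78, limma adjusted p = 0.0474) with a wide spread, from -8.96 to -5.84 in HDC-KO and from -7.95 to 2.02 elsewhere, and Tmco5 rose by 1.85 (limma adjusted p = 0.0168). With slide as a random block the limma adjusted p was 0.263 for Actc1 and 0.143 for Tmco5. The Actc1 probe was well above background on 1 HDC-KO array and 7 of the other 15, and that of Tmco5 on 7 and 7. The other 3 lay farther from Hdc, namely the olfactory receptor genes Olfr1023 and Olfr1093 (2.86 and 2.00) and Bpifb3 (2.08). Of the 15 arrays of WT and STAT6-KO, 11, 0 and 9 had these probes well above background, in that order. Of the 33 probes outside these genes and Hdc whose HDC-KO arrays lay apart from all others, 22 had a chromosome and 3 lay within 20 Mb of Hdc, those of Trmt6, Chac1 and Itpa.

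The 2 nearest tested genes on each side of each of the 5 genes were examined next. Among these 16 genes, with 21 probes, 6 probes (28.6%) passed an adjusted p under 0.05 in HDC-KO, against 4.14% of all probes and 15.0% within 20 Mb of Hdc, and the differences ranged from -0.54 to 0.72. Mrps26 and Ehd4 each gave 2 of these 6 probes. Probes of 1 gene are not independent, and nothing is read from that share. Next to Vps16, Pced1a rose by 0.72 on one probe (standard error 0.11, limma adjusted p = 0.00136), and its other probe was at 0.35 (standard error 0.15, limma adjusted p = 0.201). On the other side, Mrps26, a subunit of the mitochondrial ribosome, fell by 0.54 and 0.41 on its 2 probes (limma adjusted p = 0.024 and 0.012). Between Rbbp9 and Dtd1, Smim26 rose by 0.29 (standard error 0.08, limma adjusted p = 0.0472), and Sec23b, a subunit of the COPII vesicle coat, was at 0.24 (limma adjusted p = 0.178). Ehd4, between Jmjd7 and Pla2g4d, rose by 0.38 and 0.40 (limma adjusted p = 0.0469 and 0.0449). Pced1a alone passed with slide as a random block (limma adjusted p = 0.0155).

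The 3 genes most like each probe were found by Pearson's r over the 22 arrays. The arrays share genotypes and slides, and the HDC-KO values that chose the 5 genes enter r, so it is given as a description. Rbbp9 (first probe) and Dtd1 were most like each other (r = 0.93), each followed by Trmt6 (r = 0.90 and 0.86), and then by Klhl25 (0.90) and Ces2a (0.84). Vps16 was most like Itpa, which hydrolyses inosine triphosphate and lies 4.07 Mb from Hdc (r = 0.95), then Dynll1 (0.92) and Tmem230 (0.91). For Jmjd7 they were Mrps26 (0.89), Trmt6 (0.87) and Rbbp9 (0.85), all on chromosome 2. Those of Pla2g4d, Mdga1 (0.78), Ceacam14 (0.76) and Ccdc121 (0.76), were all on other chromosomes. The second Rbbp9 probe was most like Pced1a, Fut11 and Cdh1 (0.79 each). The median r over all named probes was between -0.12 and 0.04.

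The families to which the 5 genes belong were represented by 31 other genes with 41 probes. Of these probes, 0 passed an adjusted p under 0.05 in limma in HDC-KO against WT and STAT6-KO, against 4.14% of all probes. At an unadjusted p under 0.05 it was 6 probes, against 19.3% of all probes, and 0 by the methods' t-test. Among the other HOPS and CORVET subunits, 0 of 12 probes of 9 genes were called, with a median of 0.08 and a range of -0.24 to 0.29, and 3 had an unadjusted p under 0.05. Vps18 and Vps39, both on chromosome 2, differed by 0.20 and 0.08 on the first Vps18 and the Vps39 probe (limma adjusted p = 0.247 and 0.826). Of the other group IV phospholipases, 0 of 4 genes tested were called, and Pla2g4b and Pla2g4f, which lie on either side of Pla2g4d with Ehd4 between Pla2g4b and Pla2g4d, differed by -0.24 and 0.10. Pla2g4e was not tested because its probe was too dim. Dtd2, the other deacylase, lay between -0.19 and 0.11 on 3 probes. Retinoblastoma proteins and their binding partners ranged from -0.09 to 0.25 over 13 probes, and the JmjC oxygenases with Drg1 and Drg2 from -0.32 to 0.28 over 9. The median over all probes was 0.00.

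Between the tissues, 22 of the 41 probes of the other family members were called, 5 higher and 17 lower in spleen. Of all probes, 24.6% were higher and 37.8% lower, and the median was -0.19 for the families and -0.17 for all probes. Riox1, a JmjC ribosomal oxygenase, fell by 1.48 in spleen (standard error 0.13, limma adjusted p = 8.97e-08), Hif1an by 0.76 and Jmjd6 by 0.70, whereas Riox2 rose by 0.45. Of the tethering subunits, Vps39 fell by 0.82 and Vipas39 by 0.66, and Tgfbrap1 rose by 0.35 (limma adjusted p = 0.0121). Rb1, the retinoblastoma protein, fell by 0.73, and Pla2g4f rose by 1.07 (limma adjusted p = 0.001). In STAT6-KO against WT, Pla2g4a rose by 0.54 (limma adjusted p = 0.047) and Pla2g4c fell by 1.25 (limma adjusted p = 0.0374). Neither of these passed with slide as a random block.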

How the data were processed

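The data were one-colour Agilent 4x44K expression arrays of Cy3-labelled RNA. The deposited values are spot intensities read by the authors with Agilent Feature Extraction 11.0.1.1, not logged, with background subtracted and spatial trends removed. The submitters' processing notes name GCRMA and the paper names Genespring, and neither output was used. Of the 24 arrays, 2 held 229 and 84 spots and were left out. Spots marked as outliers (3055) were left out, 0 probes were saturated, and the spots of a probe were averaged. From the log2 of the signal, the 75th percentile of the 43020 spots of each array that were not controls was subtracted. Probes were named through their RefSeq transcripts (27234 of 39429). The array design names mm9, whereas distances and promoters are from GRCm38.p6, and no coordinate was converted.

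Probes well above background on at least 2 arrays (33617) were fitted with limma 3.58.1 in R 4.3.3, with the 6 combinations of genotype and tissue as groups and time point as an additive term, and p was adjusted over all of them by Benjamini-Hochberg. No condition had a replicate, so p-values measure the spread between arrays around these terms. All 5 comparisons, the interaction among them, are contrasts of this fit. With slide as a block, genotype, tissue and time point were additive. The fits were tested on simulated data with 200 probes changed. Of those changed by 2 on the log2 scale, 95 to 98% were found, and of those changed by 1, 65 to 73%, with 4 to 16 false calls over the 4 comparisons simulated. The simulated arrays were independent of each other, with no slide effect. These figures therefore do not cover false calls that come from spread shared by the arrays of 1 slide.

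The members, the gene lists and the comparisons were chosen with earlier results of these data known. Genes named were the members, Hdc and Stat6, the 2 nearest tested genes on each side of each member, the 3 genes most like each member, the 10 other chromosome 2 probes with the largest change among those called, fixed families of the members and markers of CD11b+, T, erythroid and plasma cells and of sex. One further marker list is not reported here. Itpa, Klhl25, Ces2a and the like entered as genes most alike. Alternatives were normexp background correction (offset 50), quantile or median scaling, a floor on low signals, other filters, 1 probe per gene, slide or the tissue pair as a random block, leaving out 1 array or 1 time point, and the methods' t-test (fold over 2, p under 0.05). The blocks for the members and for the distance windows, and the fit of the WT and STAT6-KO arrays alone, were added after the data were seen. Figures were made by matplotlib 3.10.9 (Python 3.11.15).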

Additional observations from a re-analysis of the deposited data

Results flagged for a closer look

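Flagged were Pla2g4d and Dtd1, for which the HDC-KO difference in spleen was set against that in bone marrow. Interaction terms of these 2 of 6 probes passed an adjusted p under 0.05 in limma, as did 3.11% of all probes, and nothing is read from that count. The HDC-KO values that chose the genes enter these terms, so they are descriptions. For Pla2g4d the difference in spleen exceeded that in BM by 3.43 (standard error 0.40). All 3 HDC-KO spleen arrays were above WT and STAT6-KO at the same time point, and 1 of 4 HDC-KO BM arrays was above WT. For Dtd1 the differences were 1.19 apart (standard error 0.24), and HDC-KO was lower than WT in 3 of 3 spleen pairs and in 4 of 4 BM pairs. In both cases tissue within a genotype coincides with slide.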

How the results depend on the processing

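The alternatives with slide or the tissue pair as a block for single genes and for the distance windows, and the fit of the WT and STAT6-KO arrays alone, were chosen after seeing the data. By replicate number, no paired analysis was possible because every condition had 1 array. Spleen and BM of 1 genotype and time point were instead paired as a block. The cause was not tested for any value below, except that fewer arrays or probes entered some fits. The number of arrays limits the precision.

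Counts of called probes changed as follows. With normexp they were 152 for HDC-KO (from 1393), 609 for STAT6-KO (from 2000), 13270 for tissue (from 20970), 33 for MI (from 234), 10 for the interaction (from 1044; 1051 at an unadjusted p under 0.05) and 14 within 20 Mb of Hdc (from 62). With slide as a random block they were 151 for HDC-KO, 186 for STAT6-KO and 14 within 20 Mb. With the tissue pair as a block they were 2428, 3211, 786 for MI and 608 for the interaction. Limited to probes that stood well above background on each array, they were 799 for HDC-KO, 464 for MI and 338 for the interaction. For MI, median scaling gave 62 and no filter 152. The WT and STAT6-KO arrays alone gave 1001 for STAT6-KO and 9 for MI. By the methods' t-test with fold over 2, HDC-KO gave 584 probes (74 after adjustment), STAT6-KO 582 (41), tissue 7508 (7431) and MI 151 (0). Without 1 time point the counts were 272 to 1163 for HDC-KO (lowest without the 2 week arrays), 419 to 1438 for STAT6-KO, 17147 to 20189 for tissue, 3 to 175 for MI (lowest without the 4 week arrays), 29 to 881 for the interaction and 11 to 40 within 20 Mb.

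For the 5 genes, every HDC-KO difference kept its sign in all 82 alternatives, and 2 moved by more than the spread between arrays, both with normexp (-2.24 for the first Rbbp9 probe and 0.18 for the second). Pla2g4d was not past the threshold with normexp, with slide as a block, without the STAT6-KO spleen array at 4 weeks, and without the control, 2 week or 4 week arrays. The second Rbbp9 probe was not with normexp, with slide as a block, and without the 2 or 4 week arrays. With normexp, STAT6-KO against WT reversed to 0.147 for the second Rbbp9 probe, and MI against control to 0.224 for it, 0.207 for Jmjd7 and 0.24 for Pla2g4d. Leaving out 1 time point, Jmjd7 after MI was -0.262 to 0.221 (highest without the 1 week arrays), Dtd1 in STAT6-KO -0.027 to 0.15 (lowest without the 2 week arrays), and the Vps16 interaction -0.247 to 0.027 (highest without the 1 week arrays). With the WT and STAT6-KO arrays alone, Jmjd7 after MI was 0.176. None of these was past the threshold. Pla2g4d in spleen against BM turned to -0.441 with these arrays alone and was past it. The higher level in spleen lost the threshold in 6 further cases of 88. These were the WT and STAT6-KO arrays alone (second Rbbp9 probe and Dtd1), normexp (second Rbbp9 probe and Pla2g4d), slide as a block (Pla2g4d), and the fit without the 1 week arrays (second Rbbp9 probe, 0.233, limma adjusted p = 0.0832). The interaction lost it with normexp for Pla2g4d (1.78), and for Dtd1 with normexp, median scaling (0.93) and without the 1, 2 or 4 week arrays.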
